A study of Mus musculus with 5 samples.

Results

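Glucose enters a cell through facilitative transporters of the Slc2a family and is committed to glycolysis in a short run of enzymatic steps. Hexokinases trap it as glucose-6-phosphate, glucose-6-phosphate isomerase turns that into fructose-6-phosphate, phosphofructokinase makes the committed step to fructose-1,6-bisphosphate, and aldolase and triose-phosphate isomerase split the product and interconvert its fragments. Several steps are served by isozymes from separate genes, and activated lymphocytes are known to raise glucose uptake and to express inducible forms such as GLUT1 and hexokinase 2. The 10 genes followed here were Slc2a1 and Slc2a3 (transport), Hk1 and Hk2 (hexokinases), Gpi1 (isomerase), Pfkl, Pfkm and Pfkp (phosphofructokinase), Aldoa (aldolase) and Tpi1 (triose-phosphate isomerase). Every probe set whose platform annotation names 1 of these genes and no other gene was taken. This gave 25 probe sets for 9 genes, out of 34958 probe sets for 18194 genes with a single name. Gpi1 had no probe set under its name and was not analysed here. A probe set that lists Hk1 together with other genes, 6 symbols in all, was left out.

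The cells were germinal centre B cells, which divide fast and mutate their antibody genes inside follicles during an immune response. They were sorted from spleens of C57BL/6 mice aged 12 weeks, 7 days after an injection of sheep red blood cells (SRBC). The 2 REL arrays came from eGFP+ cells of relfl/flCg1-Cre mice, in which Cre acts on floxed alleles of Rel, the gene of the NF-kB subunit c-Rel. The 3 WT arrays came from eGFP- cells of littermates with Cg1-Cre alone, so that all 5 arrays carry the Cre and the groups differ in the eGFP gate as well as in the floxed alleles. Cg1-Cre is driven from the immunoglobulin gamma 1 constant region and is active in B cells that transcribe it. Whether each array stands for its own mouse is not stated, and p-values here speak only of the spread among these arrays, which may be technical.

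Each sample was hybridized to 1 Affymetrix array after amplification of about 10 ng of total RNA, and the values are MAS5 signals, a brightness on a linear scale. Every array had the same 2% trimmed mean, and median signals were 48.1 and 30.1 in REL against 40.7, 41.1 and 54.6 in WT. Rel itself had signals of 18.6 and 85.2 in REL against 492, 134 and 206 in WT, with REL minus WT at −2.12 log2 units (SE 0.73, limma adjusted p = 0.460), and the exons that Cre removes are not stated. Germinal centre B cell markers were bright on every array, with a summed signal over 6 markers of 36065 and 39673 in REL against 33883 to 41906 in WT. The summed signal of 12 macrophage and monocyte markers was 5646 and 6237 in REL against 1271 to 1863 in WT, and 9 of the 10 tested markers had a positive difference. In 8 of the 10 the 2 REL signals were above all 3 WT signals (9.53% of all genes). In 1, Adgre1, they were below (14.3% of all genes). The excess differed by marker. Mpeg1, the brightest in WT, had 1211 and 2293 in REL against 1002, 674 and 648 in WT. Vcam1 had 671 and 390 in REL against 2.46, 0.833 and 2.01 in WT. None of those 12 markers was under the dim limit on every array. The summed signal of 6 T cell markers was 809 and 272 in REL against 207 to 491 in WT. Cd3d and Cd4 were under the dim limit on all 5 arrays. Cd3e and Cd3g passed it only on WT arrays. Cd3e had signals of 18.3 and 4.63 in REL against 83.0, 7.55 and 27.7 in WT. Those of Cd3g were 14.4 and 7.02 in REL against 11.3, 50.7 and 47.7 in WT. Of the 6 markers 2 were tested. Of these, Cd247, which encodes the zeta chain of the T cell receptor complex, had signals of 630 and 168 in REL against 307, 16.3 and 95.3 in WT, a difference of 1.72 (SE 0.95, limma adjusted p = 0.695), and Cd8a was at −0.04 (SE 0.58). The summed signal of 5 neutrophil markers was 372 and 88.8 in REL against 114 to 1306 in WT. For 4 erythroid markers it was 157 and 147 in REL against 38.4 to 190 in WT. For 4 plasma cell markers it was 14809 and 16309 in REL against 16099 to 18851 in WT. In 1 of these 4, Sdc1, the 2 REL signals (42.6 and 42.4) were under all 3 WT signals (455, 125 and 164), as in 14.3% of all genes. The part of these other cells in the values below was not tested, and in bulk samples fewer cells of a type and less RNA per cell cannot be told apart.

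Promoter windows were searched for short motifs, since the deleted gene encodes a transcription factor. The 5 windows shown were chosen after the matches were seen, because each holds the letters ACGTG, and the 9 windows without these letters are not shown, among them other starts of Pfkm and Aldoa and every start of Hk1, Pfkl, Pfkp and Tpi1. The windows are the 250 bases before an annotated start, from RefSeq on GRCm38.p6, read 5′ to 3′ on the strand of the gene. Entries were matched by symbol for 9 of the 10 genes (not Slc2a3), 15 starts in all, 4 of them of Pfkm and 3 of Aldoa. Capitals mark the letters ACGTG (the core of the hypoxia response element), GCGTG (its other common form) and CACGTG (the E box that MYC binds, which contains ACGTG), on either strand, and places where matches meet are joined. The array does not tell which start was in use.
Slc2a1, chr4:119108495-119108744, plus strand: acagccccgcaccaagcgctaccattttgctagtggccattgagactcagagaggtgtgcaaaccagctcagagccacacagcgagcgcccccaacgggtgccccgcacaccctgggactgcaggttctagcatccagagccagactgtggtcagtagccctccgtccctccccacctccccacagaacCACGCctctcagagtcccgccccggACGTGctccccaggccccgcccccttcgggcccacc
Hk2, chr6:82774455-82774704, minus strand: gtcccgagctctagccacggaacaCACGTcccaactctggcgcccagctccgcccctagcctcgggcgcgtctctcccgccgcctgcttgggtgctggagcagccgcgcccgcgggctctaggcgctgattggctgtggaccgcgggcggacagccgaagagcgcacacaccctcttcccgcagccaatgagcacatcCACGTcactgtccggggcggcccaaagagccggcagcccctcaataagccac
Pfkm, chr15:98092339-98092588, plus strand: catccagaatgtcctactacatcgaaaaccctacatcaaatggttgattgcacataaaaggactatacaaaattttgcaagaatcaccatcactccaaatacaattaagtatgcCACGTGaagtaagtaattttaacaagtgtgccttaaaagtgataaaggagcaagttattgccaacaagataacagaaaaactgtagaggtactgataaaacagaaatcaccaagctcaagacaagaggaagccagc
Pfkm, chr15:98108221-98108470, plus strand: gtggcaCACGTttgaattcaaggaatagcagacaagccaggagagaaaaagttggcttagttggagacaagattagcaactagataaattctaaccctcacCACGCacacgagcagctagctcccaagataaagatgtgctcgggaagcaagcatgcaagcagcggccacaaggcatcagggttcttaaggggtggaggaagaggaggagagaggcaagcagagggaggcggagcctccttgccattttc
Aldoa, chr7:126799179-126799428, minus strand: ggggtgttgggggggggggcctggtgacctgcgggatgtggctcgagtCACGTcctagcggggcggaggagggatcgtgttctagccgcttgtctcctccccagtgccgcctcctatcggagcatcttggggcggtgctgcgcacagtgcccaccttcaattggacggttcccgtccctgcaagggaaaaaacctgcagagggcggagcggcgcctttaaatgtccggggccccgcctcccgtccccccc
ACGTG was present in 6 of the 15 windows, from 4 genes (the window not shown is a start of Aldoa that overlaps the one above), and in 16.6% of all 32851 promoter windows of the same length. GCGTG was present in 6 windows, from 5 genes, against 28.2% of all windows. CACGTG was present in 1 window, a start of Pfkm, against 6.02% of all windows. The kB motif, the decamer that NF-kB dimers recognise, was found in 0 of the 15 windows and in 3.9% of all windows, which says only that these letters are not in these stretches. Overlapping windows of the same gene share their matches.

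Of the 25 probe sets, 23 passed the filter on dim signals, which left out those below a mean of 23.1 over the 5 arrays, and all 9 genes kept at least 1. The 2 that did not pass were Slc2a3 probe sets, 1427770_a_at with signals of 9.06 and 31.3 in REL against 8.29, 20.7 and 3.49 in WT, and 1421924_at with 3.75 and 5.78 in REL against 19.3, 3.89 and 6.05 in WT. Signals were compared as log2(signal + 16) with limma over all 22211 tested probe sets, and a difference is REL minus WT on that scale, which understates changes of dim probe sets. Limma called 0 of the 23 probe sets at an adjusted p under 0.05, with 0.0% called among all probe sets tested, and at an unadjusted p under 0.05 there was 1 lower (4.56% of all probe sets) and 0 higher (3.65%). The gene-level comparison, which keeps the brightest probe set of each gene, called 0 of 9 with 0.00828% called among 12082 genes (1 gene, the macrophage and stromal adhesion molecule Vcam1), and at an unadjusted p under 0.05 there was again 1 lower (4.99% of all genes) and 0 higher (3.24%). The adjusted p-values of the 23 probe sets ran from 0.468 to 0.982.

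**Figure D1:**
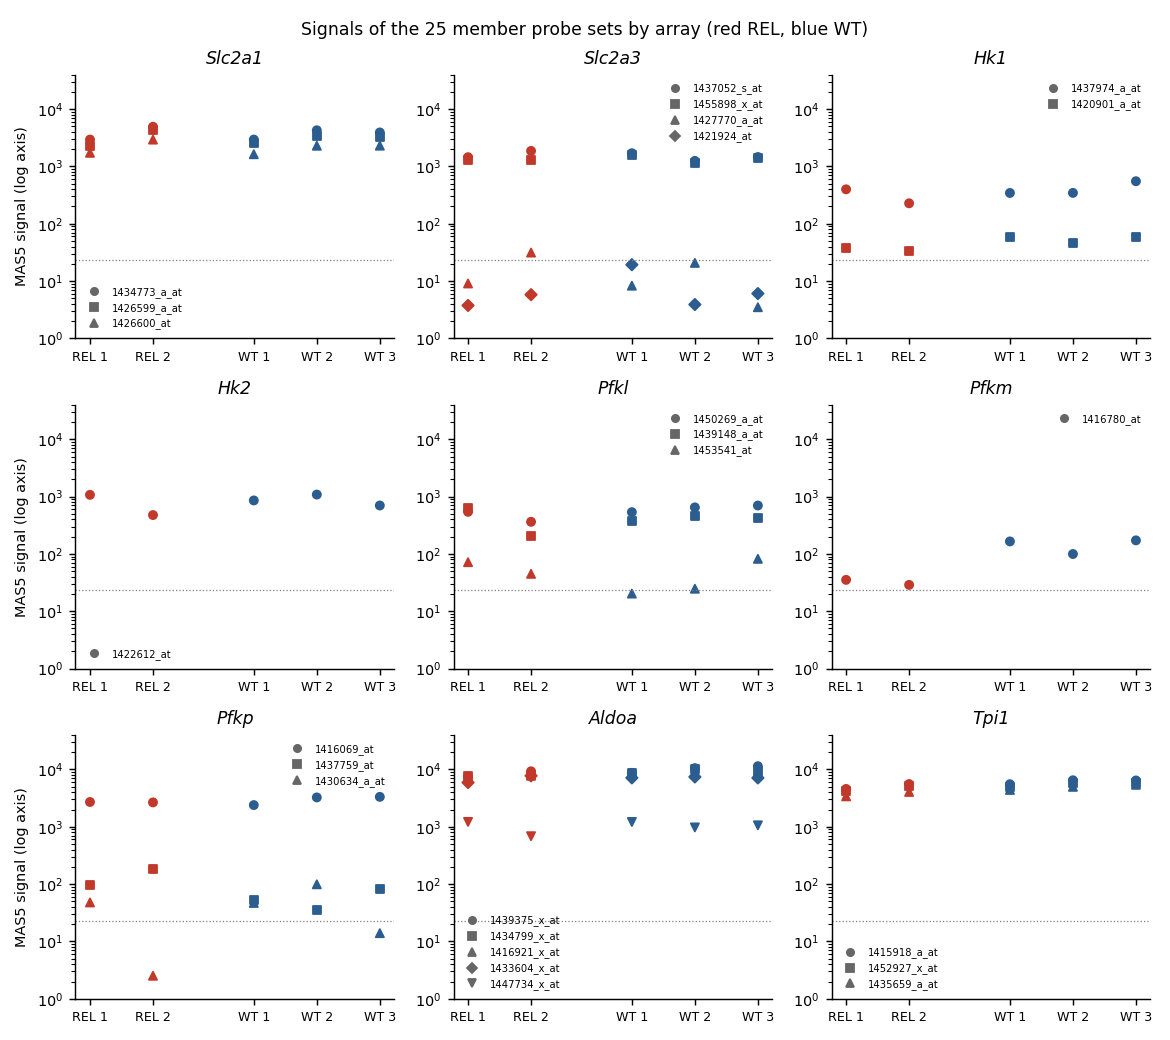
MAS5 signal (log axis) of the 25 probe sets on each array, a panel for each gene, with REL arrays in red, WT arrays in blue, a marker shape for each probe set and the dim limit of 23.1 as a dotted line. The single Pfkm probe set lies at 35.3 and 28.8 in REL and at 99.6 to 172 in WT. The REL and WT arrays lie close together in the Tpi1 probe sets and the bright Aldoa probe sets. Aldoa 1447734_x_at lies apart from these at 685 to 1217.

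The transporters did not separate the groups. Slc2a1, which encodes the glucose transporter GLUT1, was read by 3 probe sets, 2 of them (1426599_a_at and 1426600_at) designed from the same sequence record. The brightest, 1434773_a_at, had signals of 2935 and 4914 in REL against 2936, 4263 and 3906 in WT. The REL arrays therefore lay at the bottom and at the top of the WT range or outside it, and the mean difference was 0.05 (SE 0.26, limma adjusted p = 0.980). The probe set 1426599_a_at gave 2270.0 and 4369 in REL against 2545, 3354 and 3251 in WT, and 1426600_at gave 1722 and 2929 in REL against 1627, 2289 and 2295 in WT. All 3 probe sets placed REL replicate 2 above every WT array. Their differences were 0.05 to 0.13, and each was negative without REL replicate 2 (−0.25 to −0.41) and without WT replicate 1 (−0.03 to −0.10).

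Slc2a3 encodes GLUT3, a transporter of high glucose affinity. Its 2 tested probe sets were designed from the same sequence record and are not independent readings. They have the suffixes _s_at and _x_at, which the maker of the array uses where probes may match several sequences. Other transcripts may therefore add to these signals. The 2 Slc2a3 probe sets without such a suffix were the dim ones that did not pass the filter. The probe set 1437052_s_at had signals of 1447 and 1861 in REL against 1697, 1247 and 1456 in WT, a difference of 0.17 (SE 0.28, limma adjusted p = 0.929). The other, 1455898_x_at, had 1286 and 1315 in REL against 1599, 1135 and 1399.9 in WT, a difference of −0.07 (SE 0.28, limma adjusted p = 0.976) that was 0.10 under median centring. The first placed REL replicate 2 above every WT array, and the second placed both REL arrays within the WT range.

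The differences of the hexokinase probe sets were each smaller than their standard errors. Hk2, the inducible hexokinase, had a single probe set with signals of 1072 and 476 in REL against 856, 1084 and 699 in WT. REL replicate 2 was the lowest array and REL replicate 1 lay within the WT range, and the difference was −0.27 (SE 0.42, limma adjusted p = 0.926). Without REL replicate 2 it was 0.30. Hk1, the more broadly expressed hexokinase, had signals of 398 and 227 in REL against 344, 345 and 551 in WT for 1437974_a_at, a difference of −0.40 (SE 0.50, limma adjusted p = 0.893). That difference was −0.02 without REL replicate 2, −0.79 without REL replicate 1, −0.18 without WT replicate 3 and −0.23 under median centring. Its dimmer probe set 1420901_a_at had 38.2 and 33.0 in REL against 58.6, 45.5 and 57.7 in WT, a difference of −0.43 (SE 0.53, limma adjusted p = 0.889). In the dimmer one the 2 REL signals were under all 3 WT signals, and in the brighter one they were not.

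Phosphofructokinase is assembled from subunits of the liver, muscle and platelet types, the products of Pfkl, Pfkm and Pfkp, and the probe sets of these 3 genes held the lowest and the highest of the 23 differences. Pfkm had the lowest. Its only probe set, 1416780_at, had signals of 35.3 and 28.8 in REL against 165, 99.6 and 172 in WT. The REL arrays were both lower than all WT arrays and little above the dim limit. The difference was −1.72 (SE 0.58), a REL over WT ratio of 0.303 between signals with 16 added. Limma gave an unadjusted p of 0.0152 and an adjusted p of 0.468 over all probe sets. The adjusted p lay between 0.343 and 0.868 over the alternatives that could test it, and the size was −2.12 with 1 added and −1.11 with 64 added in place of 16. The genes nearest to Pfkm, by the mean absolute difference over the 5 arrays after each gene was centred on its WT mean, were Afg1l (0.05), Snord104 (0.09) and Dennd2d (0.14 log2 units).

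Pfkl was read by 3 probe sets that did not point the same way. The brightest, 1450269_a_at, had signals of 542 and 363 in REL against 535, 648 and 698 in WT, a difference of −0.48 (SE 0.41, limma adjusted p = 0.817) that was −0.20 without REL replicate 2 and −0.75 without REL replicate 1. For 1439148_a_at the REL arrays stood on either side of all WT arrays, at 634 and 209 in REL against 376, 453 and 424 in WT, with a difference of −0.18 (SE 0.54). The dim 1453541_at had 71.7 and 44.9 in REL against 20.3, 24.7 and 82.0 in WT, a difference of 0.48 (SE 0.62). Averaged over the 3 probe sets the gene stood at −0.06 (limma adjusted p = 0.992).

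Pfkp also depended on the probe set. The brightest, 1416069_at, had signals of 2707 and 2662 in REL against 2392, 3250.3 and 3326 in WT, a difference of −0.14 (SE 0.22, limma adjusted p = 0.929), and both REL arrays lay within the WT range. Under median centring it was 0.03. The dimmer 1437759_at had 96.3 and 181 in REL against 52.0, 35.5 and 82.2 in WT, a difference of 1.09 (SE 0.61, limma adjusted p = 0.697), with both REL arrays above every WT array. The third, 1430634_a_at, spanned 47.8 and 2.52 in REL against 46.9, 99.2 and 13.9 in WT, a difference of −0.81 (SE 0.74) that was 0.09 without REL replicate 2.

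Aldoa and Tpi1, which encode aldolase A and triose-phosphate isomerase, had negative differences in all 8 probe sets (7 under median centring). All 5 Aldoa probe sets have the suffix _x_at, which the maker of the array uses where some probes also match other sequences, so signal from related copies cannot be told apart. The 4 bright ones had REL signals of 5915 to 9276 and WT signals of 7113 to 11391. Their differences were −0.28 for 1439375_x_at (SE 0.16), −0.26 for 1416921_x_at (SE 0.14), −0.24 for 1434799_x_at (SE 0.13) and −0.09 for 1433604_x_at (SE 0.16), the last of which was 0.08 under median centring. For 1434799_x_at the signals were 7801 and 8008 in REL against 8599.7, 10116 and 9455 in WT, and for 1416921_x_at they were 6752 and 7748 in REL against 8043, 9124 and 8942 in WT. In these 2 probe sets the REL arrays were both lower than all WT arrays, and in the other 3 the groups overlapped. Under median centring 1439375_x_at, 1416921_x_at and 1434799_x_at stood at −0.11, −0.09 and −0.08, and without REL replicate 1 the first of these stood at −0.13. The dimmer 1447734_x_at had 1217 and 685 in REL against 1213, 975 and 1060.1 in WT, a difference of −0.23 (SE 0.35). Limma adjusted p-values of the 5 ran from 0.678 to 0.935.

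The 3 Tpi1 probe sets had negative differences. The signals of 1415918_a_at were 4569.9 and 5567 in REL against 5530.1, 6479 and 6426 in WT, a difference of −0.28 (SE 0.17). Those of 1435659_a_at were 3394 and 4051 in REL against 4391, 4967 and 5393 in WT, a difference of −0.40 (SE 0.18), and those of 1452927_x_at differed by −0.27 (SE 0.18). REL replicate 1 was the lowest array in all 3, and REL replicate 2 lay below every WT array only in 1435659_a_at. Their limma adjusted p-values ran from 0.629 to 0.750. In the order 1415918_a_at, 1435659_a_at and 1452927_x_at the differences were −0.14, −0.27 and −0.12 without REL replicate 1, −0.42, −0.53 and −0.41 without REL replicate 2, and −0.11, −0.23 and −0.10 under median centring.

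**Figure D2:**
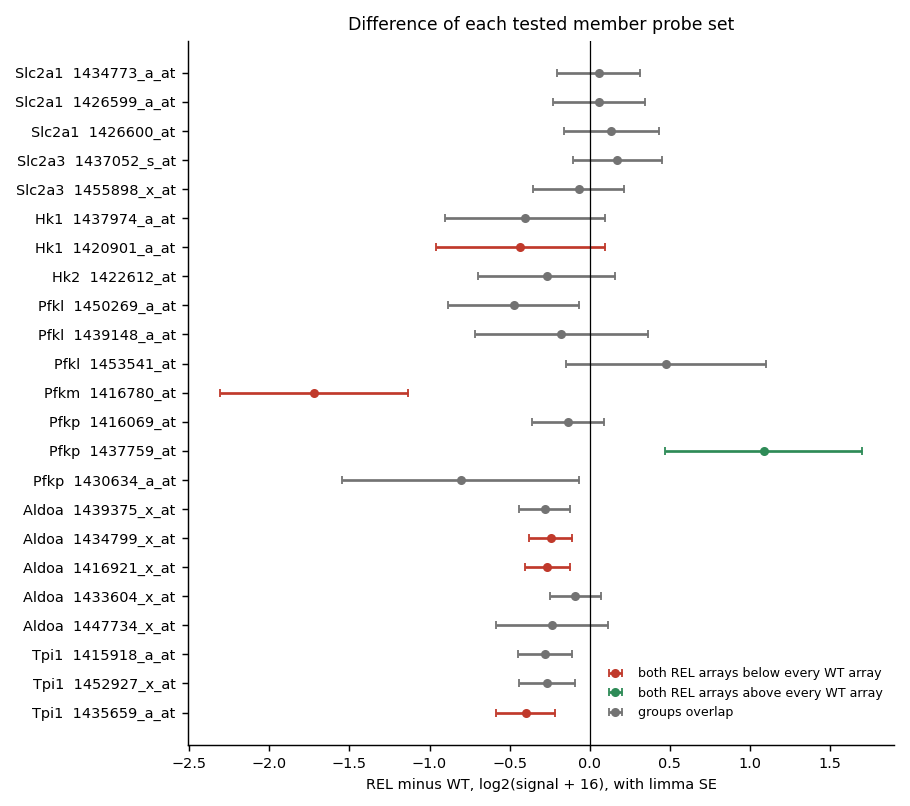
REL minus WT difference of each of the 23 tested probe sets on the log2(signal + 16) scale, with the limma standard error as the bar and the colour showing whether the groups overlap. Pfkm stands at −1.72, the 3 Slc2a1 probe sets at 0.05 to 0.13, and the 3 Pfkp probe sets at −0.81, −0.14 and 1.09.

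Set together, 17 of the 23 probe sets had a difference below 0, where 54.4% of all tested probe sets had one. Their median was −0.24 (−0.05 over all probe sets). At the gene level 7 of 9 were below 0 (6 under median centring), where 56.8% of all genes were, and the median was −0.28 (−0.07 over all genes). This median was −0.11 under median centring, where that over all genes was 0.10, −0.15 without REL replicate 1, and between −0.20 and −0.35 with any other array left out. The 2 REL signals were under all 3 WT signals in 5 probe sets, where 13.5% of all probe sets showed this, and above every WT array in 1 (10.4% of all). By the brightest probe set this order held for 1 gene of 9 below, Pfkm (14.3% of all genes), and for 0 above (9.53%). The count of 5 was 8 with quantile normalization, 2 with median centring and 10 without WT replicate 1. The median of the 9 genes' deviations from their WT means was, for each array, −0.20 and −0.15 in REL against −0.21, 0.05 and 0.16 in WT, so that WT replicate 1 lay as low as the REL arrays. The macrophage markers were 2.91 and 2.03 above their WT means on the same REL arrays, by the median of the tested markers.

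The REL arrays differed from each other gene by gene. REL replicate 2 minus REL replicate 1 was 0.74, 0.94 and 0.76 for the Slc2a1 probe sets. Among all tested probe sets with a mean signal over 1000 this difference ran from −0.90 to 0.91 between the 5th and the 95th percentile, so that 1 of the 3 lay outside that range. It was −1.15 for Hk2, −0.77 for the brighter Hk1 probe set, and −0.56 and −1.53 for the brighter Pfkl probe sets, all within the range of −2.20 to 1.74 for probe sets with a mean signal of 100 to 1000. It was 0.28, 0.29 and 0.25 for Tpi1 and −0.19 for Pfkm. The genes nearest to Slc2a1 over the 5 arrays were Basp1 (0.03), Adssl1 (0.04) and Capn1 (0.05), and those nearest to Hk2 were Dok2 (0.06), Aqp6 (0.07) and Cept1 (0.07 log2 units). Each of these likenesses rests on 5 arrays and is a description.

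**Figure D3:**
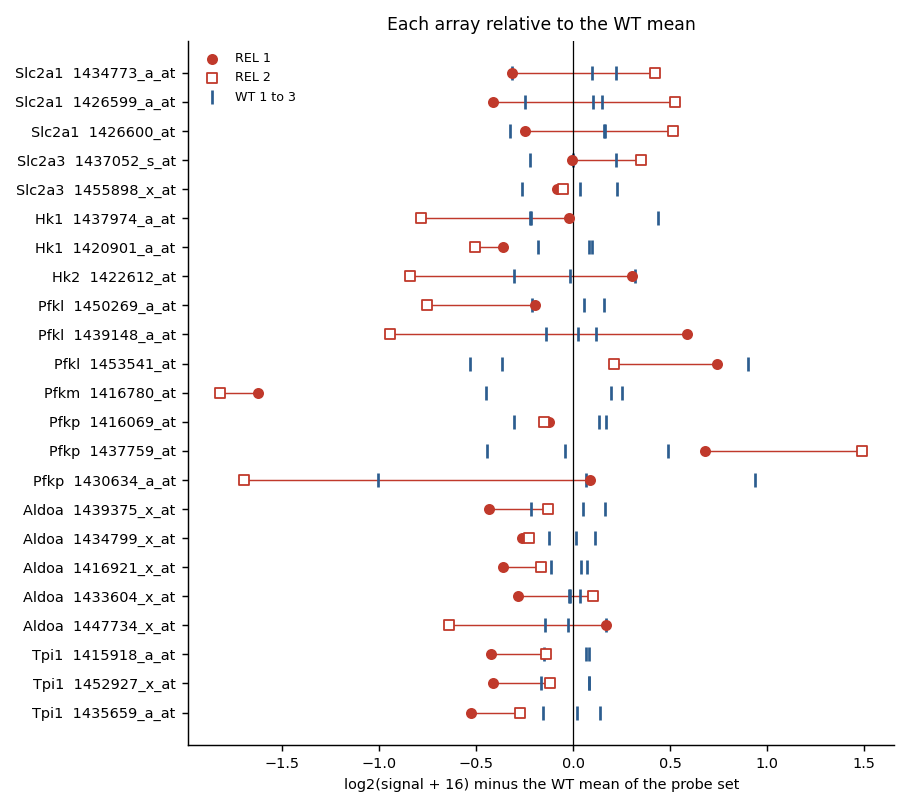
Each array's log2(signal + 16) minus the WT mean of the probe set, with REL 1 as filled circles, REL 2 as open squares joined to it by a line, and the WT arrays as blue ticks. REL 2 lies right of REL 1 in the 3 Slc2a1 probe sets and left of it in Hk2, Hk1 and Pfkl, while both lie far left of the WT ticks in Pfkm.

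Isoform balance was read as the log2 ratio of the brightest probe sets of 2 genes within an array. Such a ratio shows unequal change between groups and not which isoform is more abundant, since probe sets differ in brightness for reasons of their own. Of the 5 pairs, Pfkm over Pfkp was −5.73 and −5.90 in REL against −3.73, −4.82 and −4.15 in WT, a difference of −1.58. Pfkm over Pfkl was −3.44 and −3.08 in REL against −1.61, −2.52 and −1.92 in WT, a difference of −1.24. In both pairs the 2 REL ratios were under all 3 WT ratios. Both have the same dim Pfkm probe set on top, the one with the difference of −1.72 above. They therefore repeat that difference and are not separate observations. The exact two-sided permutation p was 0.1 and 0.2, with 0.333 for each when adjusted over the 5 pairs, and 0.1 is the smallest value that 2 against 3 arrays allow. The size depends on the number added to the signal: Pfkm over Pfkp was −1.98 with 1 added and −0.97 with 64 added, and Pfkm over Pfkl was −1.63 with 1 and −0.67 with 64.

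The balances without Pfkm overlapped between the groups. Pfkp over Pfkl averaged 2.55 ± 0.38 in REL (SD, n = 2) and 2.22 ± 0.09 in WT (SD, n = 3), a difference of 0.34 (exact permutation p = 0.2, adjusted p = 0.333). Hk2 over Hk1 averaged 1.21 ± 0.27 in REL and 1.07 ± 0.66 in WT, a difference of 0.13 (exact permutation p = 0.9, adjusted p = 0.9). Slc2a3 over Slc2a1 averaged −1.20 ± 0.27 in REL and −1.32 ± 0.49 in WT, a difference of 0.12 (exact permutation p = 0.8, adjusted p = 0.9). Pfkp over Pfkl was 0.07 without REL replicate 2 and 0.60 without REL replicate 1. Leaving out single arrays moved the Hk2 over Hk1 difference between −0.24 and 0.40 and the Slc2a3 over Slc2a1 difference between −0.10 and 0.38.

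**Figure D4:**
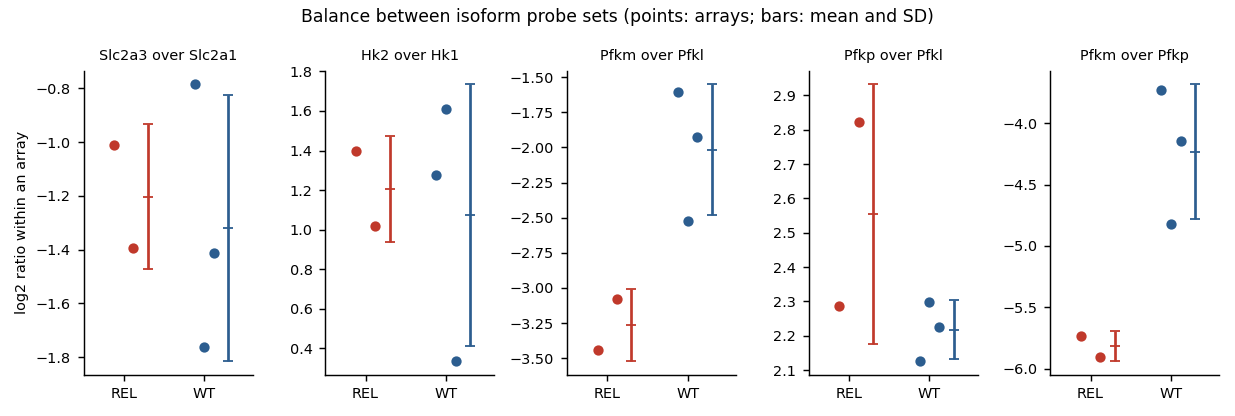
Log2 ratio of the brightest probe sets of each pair within every array, with REL arrays in red, WT arrays in blue, and bars for the mean and SD of a group. The REL arrays lie below every WT array in both ratios that have Pfkm on top (−1.24 and −1.58) and overlap the WT arrays in the others.

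The rest of the pathway was described with lists around these steps, at the gene level. Beside each list stand all tested genes, of which 56.8% were below 0, with a median of −0.07. Among 10 tested genes of lower glycolysis and lactate handling, 0 were called in either direction and 9 were below 0 (5 under median centring), with a median of −0.17. Eno1, also listed, had no probe set naming it alone. Lactate dehydrogenase A (Ldha) was at −0.52 (SE 0.16), pyruvate kinase (Pkm) at −0.54 (SE 0.17) and phosphoglycerate kinase (Pgk1) at −0.26 (SE 0.15), with limma adjusted p-values of 0.425, 0.436 and 0.710. In Ldha and Pkm the 2 REL signals were under all 3 WT signals, an order that 14.3% of all genes showed. In 0 of the 10 genes were both above every WT array (9.53% of all genes).

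The pentose phosphate branch leaves glycolysis at glucose-6-phosphate, the product of the hexokinases. Of its 6 tested genes 0 were called, with 4 below 0 and a median of −0.14. G6pdx, also listed, had no probe set naming it alone, so the branch is not fully covered. Pgd, which encodes 6-phosphogluconate dehydrogenase, had signals of 3449 and 3418 in REL against 4459, 6231 and 7010.3 in WT, a difference of −0.75 (SE 0.21, limma adjusted p = 0.390). The epimerase gene Rpe was at −0.59 (SE 0.32) and the lactonase gene Pgls at 0.49 (SE 0.36), and for Rpe 1 of 2 tested probe sets pointed the other way. In Pgd and Rpe the REL arrays were both lower than all WT arrays (14.3% of all genes). In Pgls they were both above every WT array (9.53% of all genes).

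Of 7 tested regulators 0 were called, with 5 above 0 and 2 below (1 below with quantile normalization and with median centring). Pfkfb2, a bifunctional enzyme that sets the level of the phosphofructokinase activator fructose-2,6-bisphosphate, had signals of 103 and 323 in REL against 33.7, 60.6 and 108 in WT, a difference of 1.37 (SE 0.68, limma adjusted p = 0.647), and 1 of its 2 tested probe sets pointed the other way. Myc, a transcription factor that drives glycolytic genes, was at 0.80 (SE 0.58) and Pfkfb4 at −0.62 (SE 0.60). Among other glucose transporters 3 of 8 were tested and 0 called, with Slc2a9 at −1.04 (SE 1.00), Slc2a6 at 0.17 (SE 0.52) and Slc2a8 at −0.03 (SE 0.59). Among other isozymes of the upper steps 3 of 9 were tested and 0 called, with the ADP-dependent glucokinase Adpgk at −0.26 (SE 0.32), aldolase C (Aldoc) at −0.33 (SE 0.57) and hexokinase 3 (Hk3) at 0.10 (SE 0.56). For Adpgk 1 of 2 tested probe sets pointed the other way.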

How the data were processed

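Per the submitters' processing notes the arrays were scored with MAS5, its version and settings not given in the sources used here. The authors deposited its signal as intensity values that were not log-transformed, for 45101 probe sets on each of the 5 arrays. MAS5 treats every array alone, and dim signals scatter strongly once logged. Groups were taken from the sample titles and gene names from the platform annotation, and probe sets with several symbols or none were left out. Values were compared as log2(signal + 16). Probe sets among the dimmest 40%, judged by the average on that scale, were not tested; this scale was adopted after a first fit that averaged the signals themselves had been seen. The test was limma 3.58.1 (R 4.3.3) with a trended prior and no covariate beside group (3 residual, 6.63 prior degrees of freedom), two-sided, Benjamini-Hochberg adjusted over all probe sets. A gene-level fit used the brightest probe set of each gene. The number of arrays limits the precision. The code was tested on simulated data. Named were all members, the 3 genes of smallest p in each pathway list, Rel, the brightest T cell markers and the nearest genes of Slc2a1, Hk2 and Pfkm. The dim T cell markers, Mpeg1, Adgre1, Sdc1 and Vcam1 (the 1 gene called) were chosen after their values were seen. So were the promoter windows printed and the signal bands for comparing the REL arrays. The members and lists were chosen with earlier results of these data known. Alternatives changed the pseudocount (1, 64), the filter (none, 60%), the scaling (quantile, median centring), the trend, the replicate number as a block and the probe set rule (mean per gene), or left out an array. Tables and plots were made with Python 3.11.15, pandas 2.3.3, numpy 2.4.6 and matplotlib 3.10.9.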

Additional observations from a re-analysis of the deposited data

How the results depend on the processing

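No member was called under any alternative run (lowest adjusted p 0.331), while calls over all features ranged from 0 to 3 probe sets and 0 to 18 genes, against 0 and 1 in the comparison reported. Of the 23 probe set differences 12 kept their sign throughout, those of Pfkm, Hk1, Tpi1, 3 of Aldoa, 2 of Pfkl and 1 of Pfkp. Median centring moved the median of all genes to 0.10, against −0.07 without it, and turned Slc2a3 1455898_x_at to 0.10, Pfkp 1416069_at and the Pfkp gene to 0.031 and Aldoa 1433604_x_at to 0.079. The mean of the probe sets turned the Pfkp gene to 0.047. The probe sets with both REL arrays below every WT array numbered 3 with the 60% filter, 8 with quantile normalization and 2 with median centring, and those above numbered 0 with the 60% filter, which left out Pfkm and 4 other dim probe sets. Other glucose transporters below 0 numbered 0 with the 60% filter and 1 each with quantile normalization, median centring and the replicate block, regulators below 0 numbered 1 each with the 60% filter, quantile normalization and median centring, and lower glycolysis genes below 0 numbered 5 with median centring.

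With each array left out in turn, a lone REL array being assumed to vary like the WT arrays, differences ranged from −0.32 to 0.42, −0.41 to 0.53 and −0.25 to 0.52 for Slc2a1 1434773_a_at (also its gene value), 1426599_a_at and 1426600_at, from −0.0082 to 0.35 and −0.20 to 0.044 for Slc2a3 1437052_s_at (also its gene value) and 1455898_x_at, from −0.84 to 0.30 for Hk2 as probe set and gene, from −0.94 to 0.59 for Pfkl 1439148_a_at, from −1.70 to 0.088 for Pfkp 1430634_a_at, and from −0.29 to 0.10 and −0.64 to 0.17 for Aldoa 1433604_x_at and 1447734_x_at. The probe sets with REL below every WT array ranged from 5 to 11 and those above from 1 to 6, where fewer arrays make such an order easier, transporters below 0 from 1 to 2 and regulators from 1 to 3. The isoform balance ranged from −0.10 to 0.38 for Slc2a3 over Slc2a1 from −0.24 to 0.40 for Hk2 over Hk1, from 0.070 to 0.60 for Pfkp over Pfkl, from −1.50 to −1.04 for Pfkm over Pfkl and from −1.87 to −1.33 for Pfkm over Pfkp. Some differences that kept their sign still moved by over 1.5 times, ranging from −0.79 to −0.019 for Hk1 1437974_a_at, −0.75 to −0.20 and 0.21 to 0.93 for Pfkl 1450269_a_at and 1453541_at, −0.29 to −0.055 and 0.68 to 1.49 for Pfkp 1416069_at and 1437759_at, −0.43 to −0.13 and −0.36 to −0.17 for Aldoa 1439375_x_at and 1416921_x_at, and −0.42 to −0.14 and −0.41 to −0.12 for Tpi1 1415918_a_at and 1452927_x_at. The median of the member genes ranged from −0.35 to −0.15.

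Replicate numbers are shared by the groups, and the deviations of same-numbered arrays had correlations of −0.018 and −0.0034 across probe sets. These values cannot decide whether same-numbered arrays were handled together, since a shared step may leave little trace over all probe sets. The sample titles do not state it. With the replicate number as a block 3 probe sets and 18 genes were called, against 0 and 1 without it, none of them members, and Pfkm stood at −1.59 (adjusted p = 0.755). That fit left 1 residual degree of freedom, against 3 without the block, and WT replicate 3 has no REL array of its number. With 5 arrays, dim probe sets such as that of Pfkm (SE 0.58) carry wide errors.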
